A study of Mus musculus with 10 samples.

Results

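H3K27me3, the trimethylated form of lysine 27 of histone H3, was examined at 10 genes of the Notch pathway in drug-resistant mouse lymphoma lines. The genes were listed by symbol, without a limit on any measured value, but with earlier results of these data known. They comprise 4 receptors (Notch1, Notch2, Notch3 and Notch4), 4 ligands (Dll1, Dll4, Jag1 and Jag2) and 2 target genes (Hes1 and Hey1). They are 10 of the 22367 nuclear protein-coding genes of the GENCODE annotation of mm9, and all 10 symbols were found. The parental line is a C57BL/6J mouse B-cell lymphoma line with an Eμ-Myc transgene, in which an immunoglobulin heavy chain enhancer drives Myc in B-lineage cells, and with the genotype Cdkn2a-/-. Resistant lines were taken from that 1 line at successive steps of a dose escalation of the alkylating agent mafosfamide: R100 at 100 nM on day 10, R500 at 500 nM on day 18, R1000 at 1000 nM on day 23 and R4000 at 4000 nM on day 37. The design text gives 34 days for the whole escalation, so the day of R4000 is uncertain. Dose and time in culture rose together and cannot be told apart, and all 5 lines carry the same transgene and deletion. The cells for ChIP-seq were grown without the drug. The processed data are 1 list of peak positions per line, with no score and no read count, so the depth is unknown. No difference between lines given here has a replicate check or a test. The study itself had 2 replicates per line and reported that their profiles correlated highly. A peak can come from a portion of the cells, so fewer cells with the mark and less mark per cell cannot be told apart.

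Notch receptors are membrane proteins that bind Delta-like or Jagged ligands on a neighbouring cell. Binding leads to cleavage of the receptor by ADAM proteases and γ-secretase, and the freed intracellular domain enters the nucleus, joins the DNA-binding protein RBPJ and activates genes such as Hes1 and Hey1, which encode transcriptional repressors. In lymphocytes Notch1 directs progenitors to the T-cell fate, and Notch2 with Dll1 is needed for marginal zone B cells. H3K27me3 is placed by polycomb repressive complex 2 and is known as a mark of repressed promoters, many of them CpG-rich and developmental.

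Peaks were counted over each gene and the 5 kb upstream of its transcription start site (TSS), taken as the annotated 5′ end of the gene, and the number of bases inside distinct peaks is called the coverage. Positions below are distances in bp from that TSS, negative upstream. The 3 sequences that follow show the kinds of covered DNA found among the 10 genes: the centre of the widest stretch covered in all 5 lines (Dll4), the centre of the widest stretch absent in the parental line and covered in both R100 and R500 (Notch3), and the centre of the R4000 peak of Notch2, a stretch covered in no other line (chosen after its values were seen). Each is 300 bases of mm9 in the direction of its gene, in lower case with CG dinucleotides in capitals.
Dll4, chr2:119152026-119152325, plus strand: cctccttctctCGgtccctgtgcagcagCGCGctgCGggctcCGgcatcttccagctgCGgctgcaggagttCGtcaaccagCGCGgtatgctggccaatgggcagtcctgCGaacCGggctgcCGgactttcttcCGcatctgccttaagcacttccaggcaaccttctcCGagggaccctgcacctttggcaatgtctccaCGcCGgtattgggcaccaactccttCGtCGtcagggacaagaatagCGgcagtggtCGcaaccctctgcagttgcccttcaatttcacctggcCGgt
Notch3, chr17:32299351-32299650, minus strand: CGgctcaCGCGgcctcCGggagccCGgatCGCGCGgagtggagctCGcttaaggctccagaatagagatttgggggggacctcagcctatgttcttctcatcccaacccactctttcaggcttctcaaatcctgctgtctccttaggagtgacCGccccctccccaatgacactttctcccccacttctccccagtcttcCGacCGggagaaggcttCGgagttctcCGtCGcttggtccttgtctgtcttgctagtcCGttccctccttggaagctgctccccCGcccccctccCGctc
Notch2, chr3:97817951-97818250, plus strand: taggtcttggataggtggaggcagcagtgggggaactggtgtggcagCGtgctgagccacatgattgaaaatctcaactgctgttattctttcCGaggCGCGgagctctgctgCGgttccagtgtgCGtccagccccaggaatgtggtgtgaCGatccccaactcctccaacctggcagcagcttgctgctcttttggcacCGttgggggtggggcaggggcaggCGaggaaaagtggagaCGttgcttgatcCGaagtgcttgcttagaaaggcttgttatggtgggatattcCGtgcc
The Dll4 stretch lies 506 to 805 bp downstream of the TSS with 273 of its bases in exons, and all 300 bases were inside a peak in every line. The Notch3 stretch lies 4175 to 4474 bp downstream, wholly in an intron. It was covered over 300 bases in R100 and in R500, 150 in R1000, 50 in R4000 and 0 in the parental line. The Notch2 stretch lies 490 to 789 bp downstream in an intron, was covered over 300 bases in R4000 and held no peak in the other lines. The sequences hold 21, 18 and 12 CG dinucleotides, and their GC contents are 61.7%, 61.3% and 57.0%, respectively. None contains TGGGAA, the core of the RBPJ motif, on either strand.

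The mark was found at different members of the pathway in different lines. Dll1, Dll4, Hey1 and Notch3 were covered over at least 150 bp (the length of 3 bins of 50 bp) in all 5 lines, and Jag1 had no peak in any line. Of all protein-coding genes, 4.35% were covered in all 5 lines and 57.2% had no covered base in any line. In the parental line 4 of the 10 genes were covered, against 7.67% of all protein-coding genes. The number was 8 of 10 in R100 (background 21.7%), 5 in R500 (17.0%), and 6 in each of R1000 (8.87%) and R4000 (7.05%). The 4 genes covered in the parental line were thus covered in every resistant line, Jag2 was added in all 4, Notch2 in R1000 and R4000, and Notch1, Notch4 and Hes1 in R100 alone. The limit of 150 bp is a fixed length, whereas the windows of the 10 genes ran from 8.41 to 142 kb. The shares of all protein-coding genes given here and below were not matched for gene length.

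**Figure D1:**
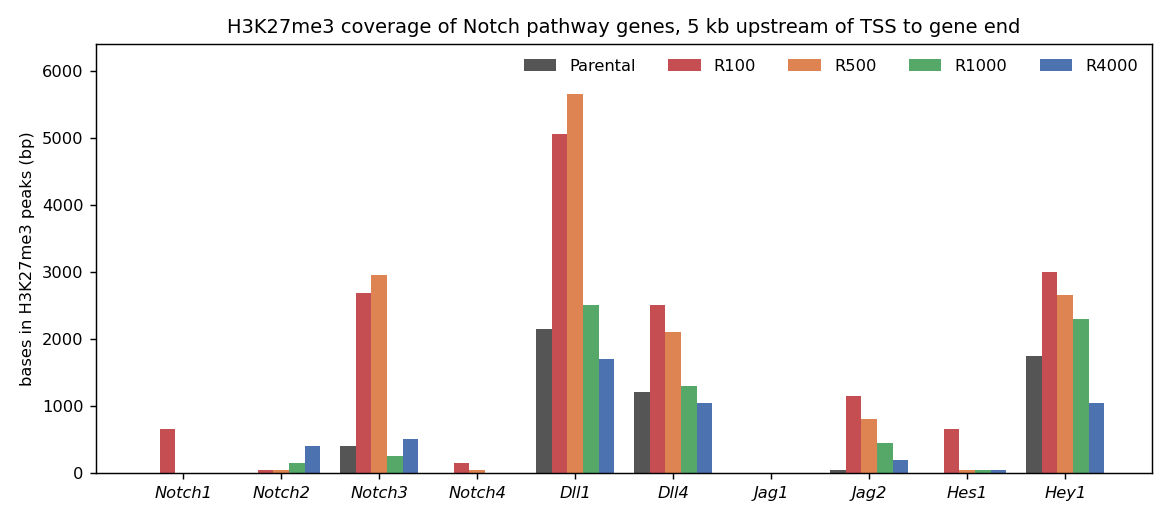
Bases inside H3K27me3 peaks (bp, vertical axis) for each of the 10 genes, with 1 bar per line and no error bars since there is 1 list per line. Dll1 has the tallest bars, up to 5650 bp in R500, and Jag1 has none.

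Summed over the 10 genes, coverage came to 5550 bp for the parental line, 15886 for R100, 14300 for R500, 7000 for R1000 and 4950 for R4000. These sums are 2.86, 2.58, 1.26 and 0.892 times the parental sum. The covered length of the whole lists relative to the parental list was 3.09, 2.78, 0.988 and 0.658 in the same order. The Notch genes therefore held a smaller part of the longer R100 and R500 lists, 3150 bp per covered Mb in each, than of the parental list, with 3400 bp per Mb. In R1000 and R4000 they held more, 4340 and 4610 bp per Mb. The order of the lines by coverage of these genes thus depends on whether the length of the list is taken into account. The median coverage per gene was 25 bp for the parental line, 900 for R100, 425 for R500, 200 for R1000 and 300 for R4000, and the median over all protein-coding genes was 0 in each line. Mean coverage ran from 495 to 1590 bp per Notch gene and from 45.0 to 203 bp over all protein-coding genes.

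**Figure D2:**
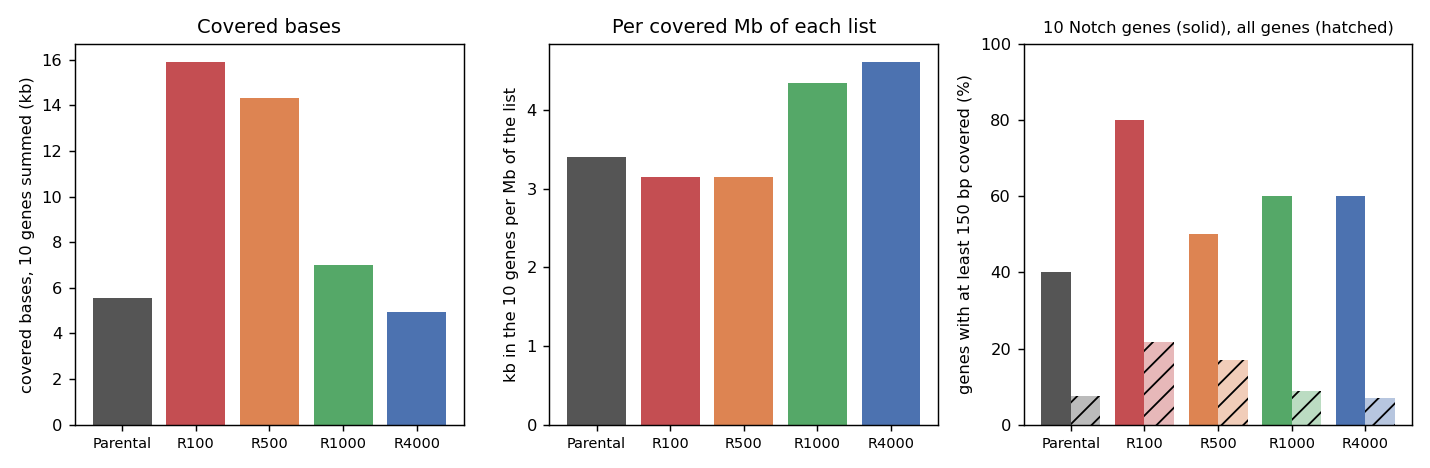
Left, bases inside peaks summed over the 10 genes (kb) in each line; middle, the same sum per Mb of the line's whole list; right, percentage of genes with at least 150 bp covered, for the 10 Notch genes (solid) and all protein-coding genes (hatched). R100 and R500 lead in the left panel and R4000 in the middle one, with 4610 bp per Mb.

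A gene was called gained where its coverage was at least 2 times the parental value and at least 150 bp greater, and lost where it was at most 0.5 times and at least 150 bp smaller. In R100, 7 of the 10 genes were gained (Notch1, Notch3, Notch4, Dll1, Dll4, Jag2 and Hes1), and 18.9% of all protein-coding genes were. In R500 the gained genes were Notch3, Dll1 and Jag2 (background 14.0%), and in R1000 and R4000 they were Notch2 and Jag2 (3.59% and 2.44%). No Notch gene was lost in any line, where 0.429%, 0.474%, 2.19% and 3.85% of all protein-coding genes were lost in R100, R500, R1000 and R4000. Only genes with at least 150 parental bp could be lost, which 4 of the 10 and 1716 of all protein-coding genes had. R1000 lost 490 of those 1716 genes and R4000 lost 862, against 96 for R100 and 106 for R500. The percentages over all genes are therefore not the background for these 4 members. Of the gained calls, Notch4 in R100, Notch2 in R1000 and Jag2 in R4000 stood exactly at the limit, each 150 bp above the parental value. Of the 14 gained calls, those of Notch3 in R100 and R500 were the 2 kept under all 7 alternative peak and window settings. With peaks within 1000 bp joined, the calls of Dll1 and Dll4 were not kept.

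The receptors were the least covered group in the parental line, with 400 bp, all of it in Notch3. Notch3 lies on the minus strand of chromosome 17 from 32257765 to 32303825, and is best known from vascular smooth muscle. Its coverage was 400 bp in the parental line, then 2686 at the R100 step, 2950 at R500, 250 at R1000 and 500 at R4000, so that R100 and R500 stood apart from the other lines at 6.71 and 7.38 times the parental value. Most of the bases lay in introns, 2100 bp in R100 and 2650 in R500. The widest peaks ran from 3925 to 4974 bp downstream in R100 (1050 bp) and from 3975 to 4974 bp in R500 (1000 bp). The parental line had a peak of 100 bp from 4675 to 4774 bp at that place. R1000 had 150 bp from 4175 to 4324 bp, and R4000 had peaks of 50 and 150 bp between 4175 and 4624 bp. Near the promoter, peaks of 50 to 300 bp overlying or adjoining the positions -325 to -226 were present in all 5 lines, although no base of Notch3 was covered in all 5. The lincRNA gene Gm17276 overlaps the 3′ part of Notch3 from 32250374 to 32278784, where R100 had 2 of its peaks (100 bp, and 36 bp inside the gene) and R500 had 1 (50 bp). The R100 and R500 peaks of Notch3 shared 2150 bp, or 80.0% of the bases in R100 and 72.9% of those in R500.

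Notch1, Notch2 and Notch4 had no parental peak. Notch1, the receptor of T-lineage commitment, lies on the minus strand of chromosome 2 from 26313423 to 26372183 and was covered over 650 bp in R100 and 0 bp in each of the other lines. Its 5 peaks in R100 were away from the TSS, with 1 of 50 bp from -4567 to -4518 and 4 inside the gene, the widest of 300 bp from 13283 to 13582 bp downstream. In R100, 8.28% of protein-coding genes had as much coverage. Notch4, an endothelial receptor on the plus strand of chromosome 17 from 34701213 to 34725448, had 150 bp in R100, 50 bp in R500 and 0 in the parental, R1000 and R4000 lines. These were peaks of 50 or 100 bp within the gene, and 21.7% of all protein-coding genes had as much in R100.

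Notch2, the receptor of marginal zone B cells, lies on the plus strand of chromosome 3 from 97817461 to 97954290. Its coverage was 0 bp in the parental line, 50 bp each at R100 and R500, 150 at R1000 and 400 at R4000. It was the one member whose coverage was highest in R4000, the line with the shortest list. All of its peaks lay in an intron between 240 and 839 bp downstream of the TSS. R100 and R500 had the same 50 bp, from 290 to 339 bp downstream, R1000 had 100 bp over that place and 50 bp from 790 to 839, and R4000 had 1 peak from 440 to 839. The R4000 peak, whose centre is the sequence shown above, covered the second R1000 place and not the first. A coverage of 400 bp or more was found in 3.11% of all protein-coding genes in R4000.

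**Figure D3:**
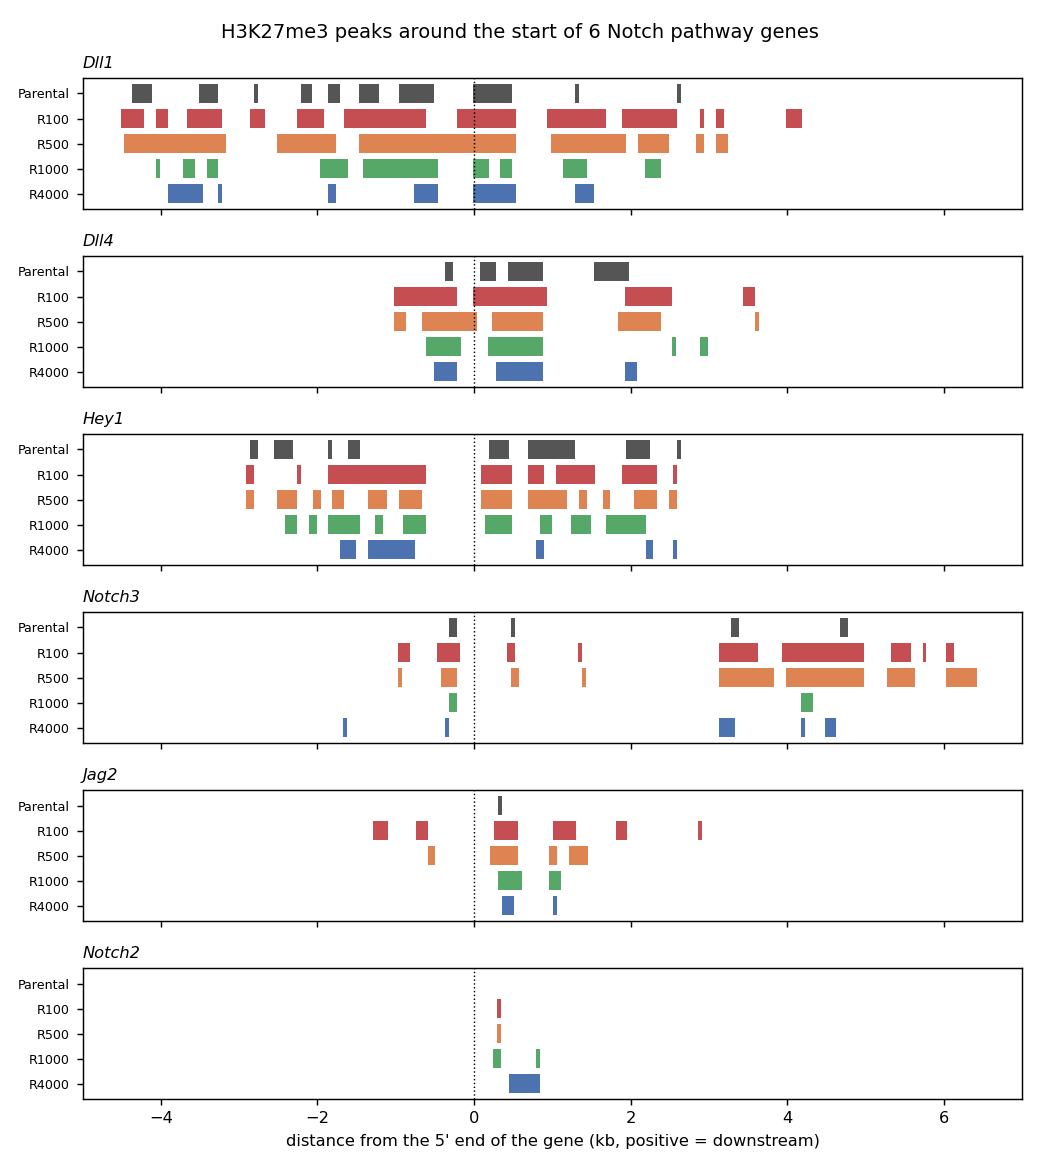
H3K27me3 peaks (filled blocks, to scale) of the 5 lines around the 5′ ends of 6 Notch pathway genes, with the distance from the 5′ end in kb on the horizontal axis, positive within the gene, from 5 kb upstream to 7 kb downstream. Dll1, Dll4 and Hey1 carry peaks on both sides of the 5′ end in every line, whereas Notch2 has a single peak of 400 bp in R4000.

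The ligands held most of the bases in every line, 3400 bp for the parental line, 8700 for R100, 8550 for R500, 4250 for R1000 and 2950 for R4000. Dll1, a Delta-like ligand of Notch2 in the spleen, lies on the minus strand of chromosome 17 from 15504318 to 15513836. Its coverage was 2150 bp in the parental line, then 5050 at the R100 step, 5650 at R500, 2500 at R1000 and 1700 at R4000, the most bases of the 10 genes in each line. Per length, Dll1 led in R100 and R500, where peaks filled 34.8% and 38.9% of its window, and Hey1 led in the other lines, with 20.2% of its window against 14.8% for Dll1 in the parental line, 26.5% against 17.2% in R1000 and 12.1% against 11.7% in R4000. R100 and R500 were at 2.35 and 2.63 times the parental value, and R1000 and R4000 at 1.16 and 0.791 times. At most 0.42% of all protein-coding genes had as much coverage in any line, the parental one included. The peaks spread over the 5 kb upstream and the first part of the gene. In the parental line a peak of 500 bp ran across the 5′ end from -14 to 485, and in R500 a peak of 2000 bp ran from -1464 to 535. The 5′ end is that of the annotated gene, and the coding transcript starts 896 bp further downstream. The lincRNA gene A930024N18Rik crosses this region on the other strand, from 15511964 to 15516439, so the peaks cannot be assigned to either gene alone. Dll1 also held 550 bp in 4 stretches that were covered in all 5 lines.

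Dll4, the Delta-like ligand of the thymus and of sprouting vessels, lies on the plus strand of chromosome 2 from 119151520 to 119161698. Its coverage was 1200 bp in the parental line, with 2500 at R100, 2100 at R500, 1300 at R1000 and 1050 at R4000. R100 passed the limit for gained at 2.08 times the parental value, R500 did not at 1.75 times, and R1000 and R4000 were within 150 bp of the parental value. The stretch from 431 to 880 bp downstream, 450 bp of which 273 are exonic, was inside a peak in all 5 lines and is the widest such stretch among the 10 genes. The peaks of R4000 lay wholly inside those of both R100 and R500, with 1050 bp shared in each pair, and 600 bp of them were shared with the parental line. In R100 a peak of 800 bp ran from -1019 to -220, where the parental line had 100 bp. The lincRNA gene Gm14207 overlaps the 5′ end of Dll4 on the other strand, from 119146923 to 119151930.

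The Jagged ligands differed from each other. Jag2, on the minus strand of chromosome 12 from 114146801 to 114167706, was covered over 50 bp for the parental line, 1150 for R100, 800 for R500, 450 for R1000 and 200 for R4000. It was the one member called gained in all 4 resistant lines, and its coverage in them was 150 to 1100 bp above that of the single parental peak of 50 bp. In each line a peak lay within 206 to 605 bp downstream of the TSS: 50 bp in the parental line, then 300 at the R100 step, 350 at R500, 300 at R1000 and 150 at R4000. A peak of 50 to 300 bp near 1006 to 1055 bp downstream was also present in each resistant line and absent in the parental line. No Jag2 peak was as wide as 500 bp. Jag1, on the minus strand of chromosome 2 from 136907192 to 136942380, had 0 bp in each of the 5 lines, both in its window and from 5 to 20 kb upstream. Whether H3K27me3 was absent there, or too low to be listed as a peak, cannot be read from the lists.

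The target genes also differed. Hey1, on the minus strand of chromosome 3 from 8663362 to 8667039, had 1750 bp inside parental peaks, 3000 at R100, 2650 at R500, 2300 at R1000 and 1050 at R4000. The resistant lines stood at 1.71, 1.51, 1.31 and 0.6 times the parental value, and none passed the limits for gained or lost. This depended on the setting. In R100 Hey1 was gained with only peaks of 500 bp or more (600 to 1750 bp). It was also gained there with only the 5 kb upstream (550 to 1400 bp) and within 2 kb of the TSS (1112 to 2462 bp). With peaks joined or lists of equal number it was not gained in R100. Its peaks took 12.1 to 34.6% of its window of 8678 bp. The parental line had 4 peaks on each side of the 5′ end, and in R100 a peak of 1250 bp filled the positions from -1861 to -612. In R4000 only 250 bp, or 14.3% of the parental bases, were in common with the parental line, and the other R4000 bases stood at positions without a parental peak. A single stretch of 50 bp was covered in all 5 lines.

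Hes1, on the plus strand of chromosome 16 from 30064470 to 30067882, had 0 bp for the parental line, 650 for R100, 50 for R500, 50 for R1000 and 50 for R4000. R100 stood alone, with 5 peaks of which the widest, of 300 bp, ran from 1631 to 1930 bp downstream. The coding transcript of Hes1 starts 956 bp downstream of the annotated 5′ end. No line had a covered base between -3820 and 1231, which includes both of these starts. The peaks of 50 bp in R500, R1000 and R4000 lay at 3 different places, and in R1000, 16.1% of all protein-coding genes had as much.

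Positions were compared between lines base by base. R100 and R500 shared 53.3% of the bases that either covered in the 10 genes, and the other pairs of lines shared 21.4 to 35.7%. This share cannot exceed the ratio of the smaller to the larger coverage of a pair. R100 and R500 had the largest sums, 15886 and 14300 bp, and the other lines had 4950 to 7000 bp. The same share over all genes was not computed, so the contrast cannot be read as particular to these genes. In all, 7 stretches with 1150 bp were covered in all 5 lines, in Dll1 (550 bp), Dll4 (550 bp) and Hey1 (50 bp). Stretches with no parental peak that both R100 and R500 covered numbered 43, with 6900 bp in 6 genes, led by Dll1 with 2400 bp and Notch3 with 1800 bp. Of these 6900 bp, R1000 covered 2500 bp and R4000 covered 2100 bp. In Notch3, R1000 and R4000 covered 150 and 400 of the 1800 bp, and in Jag2 they covered 250 and 200 of 400 bp. Dll1, Dll4 and Hey1 together made up most of the coverage of the 10 genes, 91.9% in the parental line, then 66.4% at the R100 step, 72.7% at R500, 87.1% at R1000 and 76.8% at R4000.

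Most of the covered bases lay close to a start site. Windows reaching 2 kb to either side of the TSS held 70.5% of the bases for the parental line, 58.4% for R100, 55.6% for R500, 81.6% for R1000 and 76.2% for R4000. The DNA in these windows of 4001 bp was CG-rich in most members. The number of CG dinucleotides was 46 in Notch4, 49 in Notch1, 125 in Notch3, 158 in Notch2, 185 in Dll1, 198 in Hey1, 205 in Dll4, 245 in both Jag1 and Hes1, and 290 in Jag2, against a median of 85 over all protein-coding genes. The 2 poorest members, Notch1 and Notch4, were covered in R100 only, and of the 3 richest, Jag2 was covered in all 4 resistant lines, Hes1 in R100 only and Jag1 in none. Covered here still means over the gene and its 5 kb upstream, a longer window than that of the CG counts. Within 2 kb of the TSS, Notch1 had 0 bp and Notch4 100 bp in R100. Notch2, Notch3, Dll1, Dll4, Jag1, Jag2, Hes1 and Hey1 are the 8 members among the 7386 genes with 113 to 430 CG dinucleotides, of which 14.7% were covered in the parental line, with 38.7% at R100, 31.4% at R500, 18.1% at R1000 and 15.1% at R4000. The part that CG content has in the coverage of the members was not tested. The core letters of the RBPJ motif, TGGGAA, were found on either strand of the 1000 bp upstream of the TSS in 6 of the 10 members and in 62.8% of all protein-coding promoters. The longer GTGGGAA, which contains the core, was found in 2 members (Notch1 and Hey1) and in 18.8% of promoters. In the windows of 2 kb to either side of the TSS, TGGGAA was found in all 10 members and in 97.6% of such windows, and GTGGGAA in 8 members and in 56.7%.

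The rest of the pathway was described with 61 other genes, listed by role and all found in the annotation. Of these, 12 were covered in the parental line, with 27 at R100, 24 at R500, 18 at R1000 and 13 at R4000, 10 were covered in all 5 lines, and 13 had no peak in any line. The shares of all protein-coding genes covered were 7.67%, 21.7%, 17.0%, 8.87% and 7.05% in the same order of lines. By the same limits, 24 were gained at R100, 21 at R500, 5 at R1000 and 3 at R4000, and 0, 0, 2 and 4 were lost. The background was 18.9%, 14.0%, 3.59% and 2.44% for gained and 0.429%, 0.474%, 2.19% and 3.85% for lost. Genes able to be lost, with at least 150 parental bp, were 12 of the 61 and 1716 of all protein-coding genes. R1000 lost 490 of those 1716 genes and R4000 lost 862. The other Hes and Hey genes, which encode repressors of the same family as Hes1 and Hey1, were the most covered group, with 4, 7, 6, 5 and 5 of 7 genes in the parental, R100, R500, R1000 and R4000 lines. At the other end, the 5 genes for fringe proteins and other enzymes that glycosylate the receptors gave 1 covered gene in R100 and 0 in the other lines. Among the 10 genes for receptor-cleaving proteases and other subunits of γ-secretase, 1 to 3 were covered per line, and among the 9 genes of the nuclear complex around RBPJ, 1 or 2.

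The 5 genes of this list with the most coverage over the 5 lines were Heyl, Tle2, Hes2, Hey2 and Maml3. Heyl, a Hey family repressor, had 1500 bp in the parental line, with 3700 at R100, 4600 at R500, 650 at R1000 and 1600 at R4000. Tle2, a Groucho corepressor, had 1050, 3850, 3450, 1150 and 1000 bp in the same order. Both were highest in R100 and R500. Hes2 had 850, 2600, 2350, 1350 and 550 bp, and Hey2 had 1150, 2250, 2200, 1200 and 350 bp. Maml3, a Mastermind-like coactivator of the Notch and RBPJ complex, had 900, 2650, 1800, 900 and 450 bp. In each of these 5 genes the coverage in R1000 and in R4000 was below that in R100 and in R500. Picking genes by summed coverage favours high values in R100 and R500. In the whole lists too, R1000 and R4000 were below R100 and R500. The covered lengths were 3.09, 2.78, 0.988 and 0.658 times the parental length in R100, R500, R1000 and R4000. The pattern is therefore not particular to these genes.

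**Figure D4:**
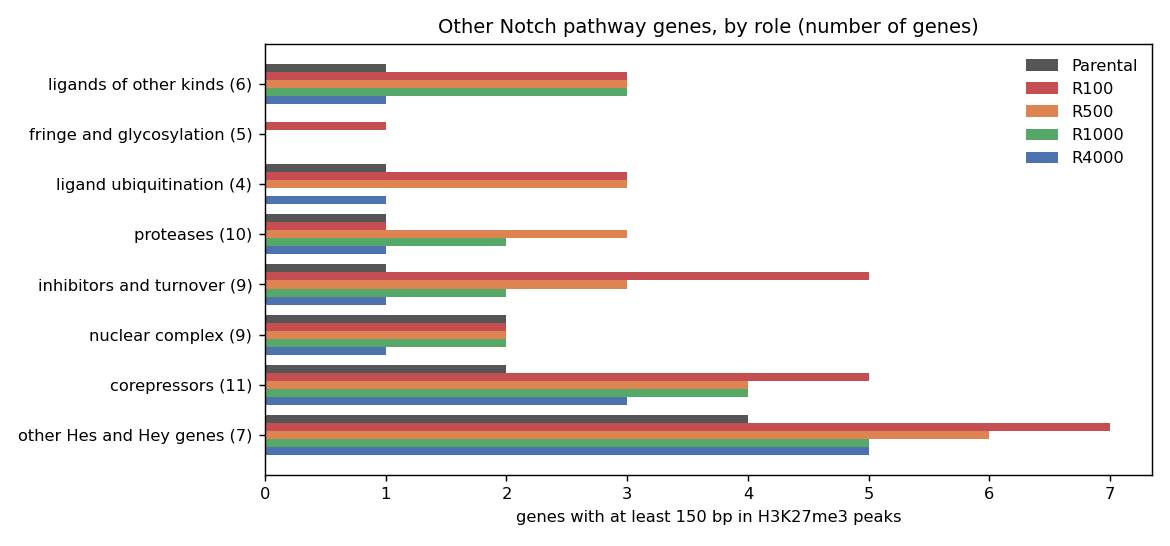
Number of the 61 other Notch pathway genes with at least 150 bp inside H3K27me3 peaks (horizontal axis) in each line, by role, with the number of genes of each role in parentheses. The other Hes and Hey genes have the longest bars, 4 to 7 of 7, and the glycosylation genes are covered in R100 alone. The group labelled proteases includes other subunits of γ-secretase.

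The lists as a whole held 10778 distinct peaks for the parental line, 25180 for R100, 21888 for R500, 9595 for R1000 and 6820 for R4000, with a median width of 100 bp in each. Of 12 B-cell marker genes, 0 were covered in the parental line, 5 each at R100 and R500, and 3 each at R1000 and R4000, and Cd79a, Blnk, Ms4a1 and Igll1 had no peak in any line. Of 8 T-cell marker genes, 1 to 4 were covered per line, with Gata3 in all 5, and of 6 myeloid markers 1 was covered, in R1000 alone. Of 3 erythroid markers, 1 was covered in each resistant line and 0 in the parental line. Of all protein-coding genes, 7.67%, 21.7%, 17.0%, 8.87% and 7.05% were covered in the parental, R100, R500, R1000 and R4000 lines. The marker groups are small, so their counts are not read as a result about cell types. Cdkn2a, which is deleted in all lines, had no peak in any. A peak of a repressive mark, or its absence, does not give a gene's expression, which was not analysed here.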

How the data were processed

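Of the 10 samples, the 5 of H3K27me3 ChIP-seq were used, 1 per line, grouped by the line named in their labels. RRBS, expression and genome sequencing were not analysed here. Per the methods, reads of 50 bp came from an Illumina HiSeq 2000, and the authors compared ChIP with input counts in genomic windows by Poisson statistics to call peaks. The submitters' processing notes list Bowtie and mm9. The study set a p-value limit per bin for its clustering of promoters, which could not be applied to lists without p-values. Whether the same limit made the lists, and whether a list pools the 2 replicates per line of the study, are not given in the sources used here. The deposited values are peak positions in bp on a grid of 50 bp, with no count or score. Every chromosome's last peak fell within its length in NCBIM37 (mm9).

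Every peak stands 2 times in the deposited lists of R100 and R500 and was used once. Bases inside peaks were counted from 5 kb upstream of the 5′ end of each gene to its 3′ end, for the 22367 nuclear protein-coding genes among 37310 in the GENCODE annotation of NCBIM37, with Python 3.11.15, pandas 2.3.3 and numpy 2.4.6. Sequence was read with pysam 0.24.0, and figures were drawn with matplotlib 3.10.9. On simulated data, the counting was tested in 1000 windows and 0 differed from the sum over single bases. Exonic bases are those in any annotated exon of the gene. The depth behind each list is unknown and the lists differ in length, so the length of each list is given beside the sums.

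The 10 genes, the list of other pathway genes, the markers and the limits were chosen with earlier results of these data known. All 10 genes are named in the text, with the 5 other pathway genes of the highest summed coverage. The B-cell marker genes without a peak, and Gata3, were named after their values were seen. No test was made, since there is 1 list per line. The alternatives were the use of peaks of 500 bp or more alone, the joining of peaks within 1000 bp, only the 5 kb upstream, 2 kb on both sides of the TSS or of every transcript start, lists of equal number, repeated entries counted, a minimum of 1 bp and coverage per Mb of the list.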

Additional observations from a re-analysis of the deposited data

How the results depend on the processing

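Each list is a single one, so no result has a replicate to leave out, and no paired analysis was possible because no result comes from a test. Counts and ratios were taken as unmoved within 1.5 times of the reported value, since a length has no binomial interval. With only peaks at least 500 bp wide, the covered genes numbered 2 in the parental line, 4 in R100, 3 in R1000 and 3 in R4000, the gained genes 4 in R100, 1 in R1000 and 1 in R4000, and the ratios of summed coverage to the parental line were 8.09 for R100, 8.27 for R500, 1.95 for R1000 and 1.59 for R4000, the last now above 1. With only the 5 kb upstream, 2, 5, 3 and 3 genes were covered in the parental, R100, R1000 and R4000 lines, and 4, 1 and 1 were gained in R100, R1000 and R4000. Under both of these settings the gene gained in R1000 and in R4000 was Dll4. The calls of Notch2 and Jag2 in those lines were not kept. Within 2 kb of the TSS, 4 genes were gained in R100. Hey1, not gained in the main setting, was among these 4. It was also among the 4 gained in R100 with only wide peaks and with only the 5 kb upstream. At a minimum of 1 bp, 8 genes were covered in R500. Per Mb of the list the ratio turned to 0.928 in both R100 and R500 and to 1.36 in R4000. With peaks within 1000 bp joined, the ratio in R1000 turned to 0.976, and 1 gene was lost in R1000 (Notch3) and 1 in R4000 (Hey1). With repeated entries counted, the ratios were 5.72 in R100 and 5.15 in R500 and 5 genes were gained in R500, by construction of the doubled lists. With lists of equal number, 1 gene was gained in R1000. Of the 14 gained calls of a gene in a line, 2 held under all 7 alternatives tried on them, those of Notch3 in R100 and R500. Leaving Dll1 or Notch3 out of the sums, chosen after seeing the data, gave ratios of 3.19 and 2.56 for R100, 2.54 and 2.2 for R500, 1.32 and 1.31 for R1000, and 0.956 and 0.864 for R4000. Except where a value above says otherwise, the cause of these changes was not tested. Since the depth is unknown, a missing peak does not show that the mark was absent.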
